A study of Schizosaccharomyces pombe with 10 samples.

Results

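The outer 40 kb at each end of chromosomes I and II of the fission yeast Schizosaccharomyces pombe were examined in ChIP-seq libraries of Myo1-GFP cells and of NoIP controls grown in high or low phosphate. The signal table divides the genome into windows of 200 bp that begin every 100 bp, and a window belonged to an end if it lay wholly within 40 kb of the tip of the chromosome sequence. This position rule, which used no measured value, gave 1598 of 126317 windows, with 399 at the left end of chromosome I (I left), 400 at I right, 399 at II left and 400 at II right. The 3 Myo1-GFP libraries of each condition came from a strain whose class I myosin carries GFP, and the 2 NoIP libraries of each condition carry a wild-type strain label. Cells in the high phosphate groups stayed in YES medium for 4 h at 30°C, those in the low phosphate groups spent the same time in the phosphate-poor medium YES LowPi, and all were fixed with formaldehyde. The protocol names GFP-Trap beads for every library, and the labels do not say whether NoIP means a pulldown from untagged cells or no pulldown. Nothing in the labels says that replicates came from separate cultures, so the p-values below measure the spread between these libraries, which may be technical.

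Subtelomeres are the stretches of chromosome that lie just inside the telomere repeats. In fission yeast they carry heterochromatin marked by methylation of histone H3, and they hold families of related genes that recur from end to end, among them the telomere-linked helicase genes tlh1 and tlh2. Reads from such repeated stretches cannot be placed uniquely by an aligner, so the signal of 1 copy may hold reads of the others. Myo1 is known mainly for its work with actin in endocytosis at the plasma membrane, and the comparisons below address whether its pulldown differed from the control at the chromosome ends and whether phosphate changed the signal there.

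How far the ends repeat was read from the reference sequence as the share of 50-base words that occur once in the genome on either strand. Such unique words made up 16.3% of the words at I left, 52.9% at I right, 28.1% at II left and 17.7% at II right, against 96.8% over the rest of chromosomes I, II and III. Windows without any unique word, called duplicated windows below, numbered 955, and windows made up wholly of unique words numbered 372. At the level of whole windows, 833 of the 1598 occurred letter for letter in at least 1 other end. The windows of highest mean signal at each end are shown here because they span this range of uniqueness, and capitals mark the bases covered by no word found elsewhere in the genome (plus strand, reference assembly ASM294v3, whose chromosomes I to III have the lengths of the ASM294v2 build used for the table).
I left, within tlh1, chrI:2801-3000: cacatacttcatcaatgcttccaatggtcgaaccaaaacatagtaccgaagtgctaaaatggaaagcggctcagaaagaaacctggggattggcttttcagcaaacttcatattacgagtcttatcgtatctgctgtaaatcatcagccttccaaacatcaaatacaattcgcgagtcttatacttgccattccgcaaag
I right, between genes, chrI:5567901-5568100: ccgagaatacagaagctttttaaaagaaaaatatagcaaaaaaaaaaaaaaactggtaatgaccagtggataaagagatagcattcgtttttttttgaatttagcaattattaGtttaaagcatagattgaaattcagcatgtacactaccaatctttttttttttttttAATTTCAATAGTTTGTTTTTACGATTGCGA
II left, between genes, chrII:7201-7400: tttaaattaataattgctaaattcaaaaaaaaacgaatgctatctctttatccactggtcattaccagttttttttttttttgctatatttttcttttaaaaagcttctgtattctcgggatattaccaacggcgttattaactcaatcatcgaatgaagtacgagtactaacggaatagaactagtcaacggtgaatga
II right, between tlh2 and the tip, chrII:4533101-4533300: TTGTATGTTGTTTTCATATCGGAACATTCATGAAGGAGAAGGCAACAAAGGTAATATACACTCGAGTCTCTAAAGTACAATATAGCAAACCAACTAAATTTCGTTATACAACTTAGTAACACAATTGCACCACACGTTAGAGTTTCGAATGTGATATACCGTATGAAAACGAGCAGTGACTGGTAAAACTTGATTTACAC

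The I left and II left windows held no base that was unique, while all 200 bases of the II right window were unique. Unique here means found once in the reference, so copies that the assembly lacks would not show. A run of 75 bases was shared between the I right window and the opposite strand of the II left window, so the highest windows of these ends partly hold copies of 1 sequence. GC content averaged 34.0%, 32.6%, 32.8% and 33.4% in the windows of I left, I right, II left and II right, and 36.1% in the other windows of chromosomes I, II and III. The telomere-repeat-like word GGTTACA occurred 6, 8, 6 and 7 times at the ends in that order, on both strands together, and its median count was 3, with a range from 0 to 16, over 307 whole stretches of 40 kb laid from the left tips, without the stretches at the tips of the 3 chromosomes. In tandem the word occurred 0 times at every end and in 0 of the 307 stretches. Distances below are therefore from the tip of the reference sequence and not from a repeat array.

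Levels are given below as log2 of the mean signal of a region's windows over the median window of the same library, so that 0 is the library's typical window and 1 is a doubling. Depth varied widely between the libraries. Read from the smallest step of the signal values, it ranged from 1422750 window counts in Myo1-GFP high phosphate replicate 3 to 43773370 in Myo1-GFP low phosphate replicate 1, and only Myo1-GFP low phosphate replicate 3 (1802481) was similarly shallow. The median window held 8 and 11 counts in these shallow libraries and 64 to 311 in the other 8, which gives a relative counting error per window of 35.4% and 30.2% against 5.67% to 12.5%. Of the 1598 windows, 9 were at 0 in at least 1 library, all of them unique windows and all in the shallow libraries.

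II right carried the highest signal of the 4 ends in every library, and I left came next. At II right the levels of Myo1-GFP in high phosphate were 1.05, 0.63 and 1.31 and those of NoIP were 1.29 and 0.54, and in low phosphate they were 0.69, 0.79 and 1.26 for Myo1-GFP and 1.13 and 0.72 for NoIP. All 10 libraries lay above their typical window, with the highest value in a Myo1-GFP library and the lowest in a NoIP library, both of high phosphate. At I left the Myo1-GFP levels were 0.64, 0.16 and 1.07 in high phosphate and 0.29, 0.31 and 0.83 in low phosphate, and the NoIP levels were 0.92 and 0.13 in high and 0.64 and 0.27 in low phosphate. Within the same library, I left minus II right was -0.49 to -0.25. I right had levels of 0.27, -0.05 and 0.49 for Myo1-GFP and 0.46 and -0.09 for NoIP in high phosphate, and 0.06, 0.04 and 0.40 for Myo1-GFP and 0.28 and 0.05 for NoIP in low phosphate. II left had 0.23, -0.10 and 0.57 for Myo1-GFP and 0.48 and -0.15 for NoIP in high phosphate, and -0.07, -0.04 and 0.50 for Myo1-GFP and 0.22 and -0.03 for NoIP in low phosphate. These last 2 ends were close to each other, with I right above II left in 7 of 10 libraries and differences from -0.10 to 0.13.

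**Figure D1:**
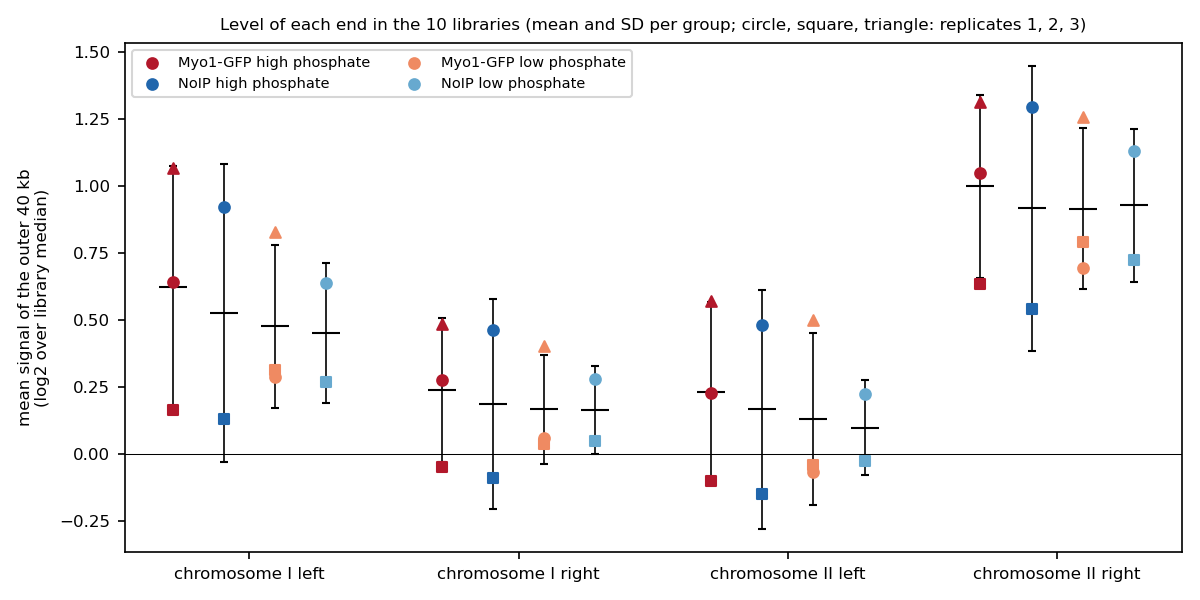
Level of each end in each of the 10 libraries (y axis, log2 of the mean signal over the library's median window), with 1 point per library, coloured by kind and condition and shaped by replicate, and a line and bar for the mean ± SD of each group. II right lies highest in every library, between 0.54 and 1.31, and the groups overlap at all 4 ends.

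Among the 314 stretches of 40 kb into which chromosomes I, II and III were divided, II right ranked between 3 and 7 from the top in the individual libraries. I left ranked between 7 and 89, I right between 18 and 293 and II left between 22 and 309, so the last 2 were among the highest stretches in some libraries and among the lowest in others. The median levels over libraries were 0.92 at II right, 0.48 at I left, 0.17 at I right and 0.10 at II left. The other 249 stretches of chromosomes I and II had medians from -0.14 to 0.81, centred on 0.10. Compared with the adjoining 40 to 80 kb in the same library, I left, I right and II right were higher in 10 of 10 libraries, by medians of 0.42, 0.30 and 1.0, and II left was higher in 7 of 10, by a median of 0.12.

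By distance from the tip, the signal at I left was highest in the outermost 5 kb, which lies within tlh1, with a mean of 1.12 ± 0.43 (SD, n = 10 libraries) and a range from 0.67 to 1.77. It was lowest from 35 to 40 kb, at 0.17 ± 0.25. Bin levels in this profile are relative to the median window, and those tested below to the median bin. I right had its highest bin from 5 to 10 kb (0.56 ± 0.30), its outermost bin at 0.49 ± 0.40 and its lowest bin from 30 to 35 kb, where all 10 libraries lay below 0 (-0.36 ± 0.38). The outer 20 kb of I right exceeded the inner 20 kb in 10 of 10 libraries, by 0.27 to 1.68. II left had a lower tip, with 0.20 ± 0.35 in the outermost bin and 5 of 10 libraries above 0, then rose to 0.60 ± 0.44 from 5 to 10 kb and reached its lowest bin from 30 to 35 kb (-0.29 ± 0.08). II right began at 1.55 ± 0.20, stayed at 1.56 ± 0.26 from 5 to 10 kb and was lowest from 35 to 40 kb (0.39 ± 0.44), where 8 of 10 libraries were still above 0.

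**Figure D2:**
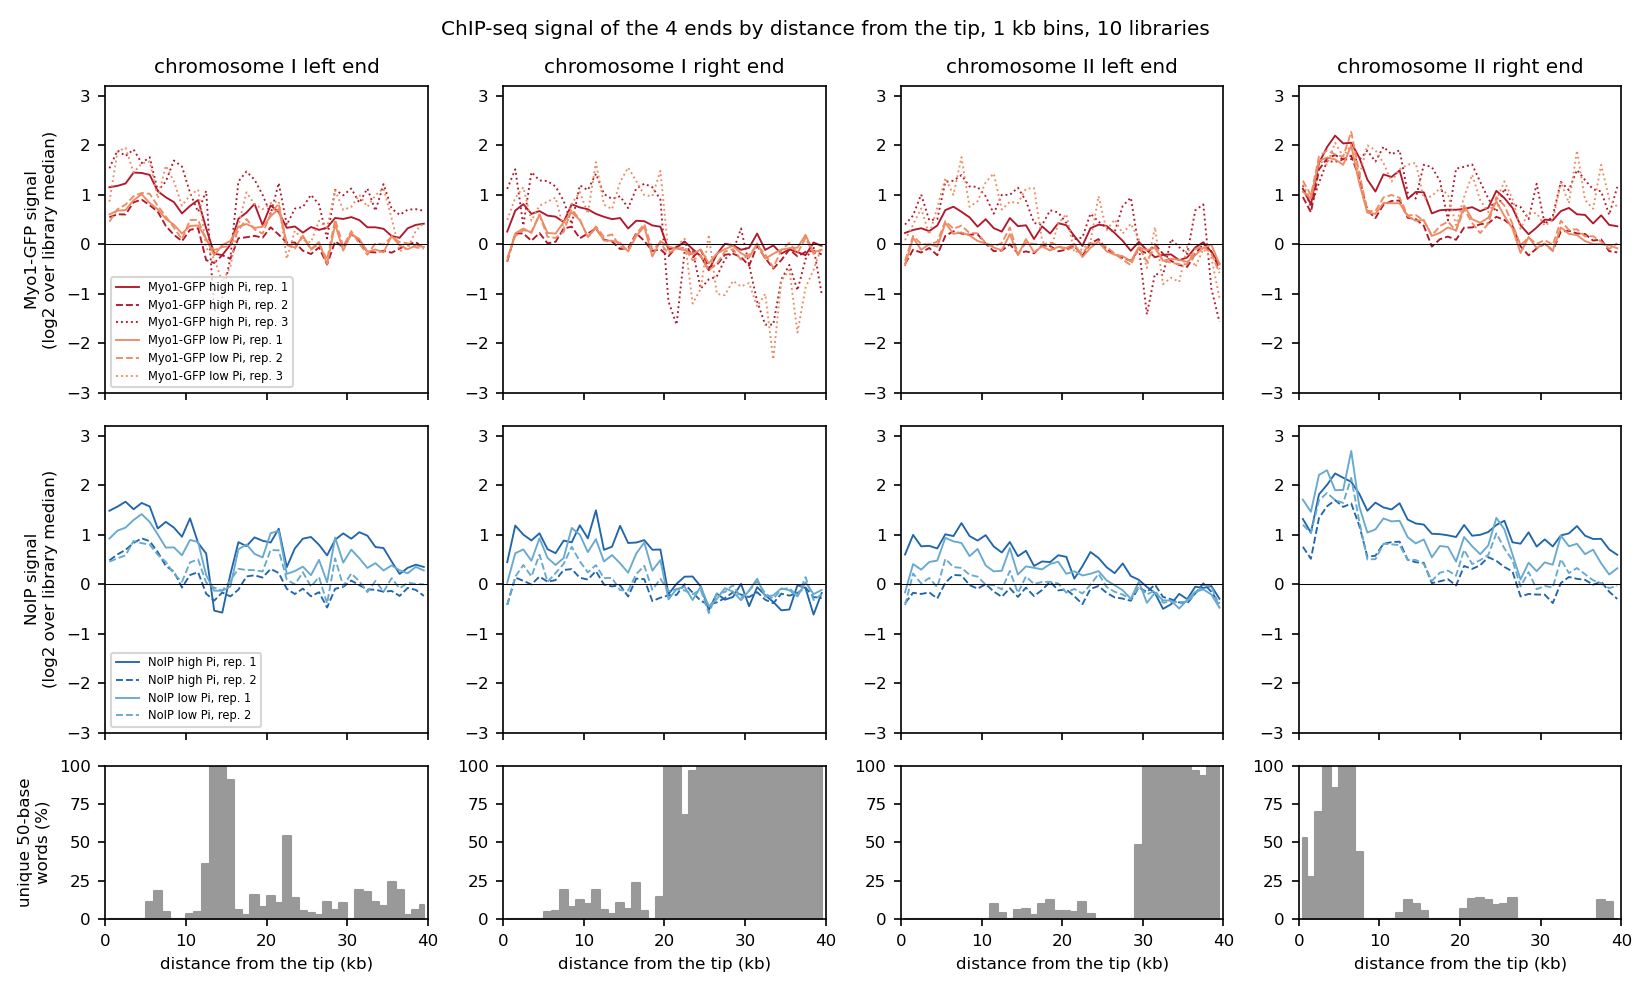
Signal in 1 kb bins against distance from the tip in kb at the 4 ends, with 1 line per library, the Myo1-GFP libraries in the top row, the NoIP libraries in the middle row (y axes, log2 level over the library's median window) and the share of unique words in % in the bottom row. The profiles of Myo1-GFP and NoIP follow the same course, and most bins of unique sequence at I left, I right and II left lie below 0 while those at the tip of II right lie well above it.

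These profiles were shared by both kinds of library. Over the 160 bins of 1 kb, the mean profile of Myo1-GFP and that of NoIP had a Pearson correlation of 0.97, and pairs of single libraries ranged from 0.57 to 0.98 with a median of 0.89. The correlations are across bins of the same genome, which share sequence and base composition, and are given as descriptions. The lowest value paired the shallowest library, Myo1-GFP high phosphate replicate 3, with NoIP low phosphate replicate 2.

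At I left, I right and II left the signal was higher in duplicated than in unique sequence, and at II right it was lower. All 25 bins of 5 kb with under 50% unique words had means above 0, from 0.02 to 1.56, and all 6 bins with over 90% unique words had means below 0, from -0.36 to -0.20. The bin in between was the outermost one of II right, at 1.55. Of the 25 bins, II left from 25 to 30 kb was lowest. Its median was -0.10, with 4 of 10 libraries above 0. The highest of the 25, II right from 5 to 10 kb, held 48.7% unique words. Within libraries, the duplicated windows exceeded the unique windows in 10 of 10 libraries at I left, I right and II left, by medians of 0.72, 0.52 and 0.44. At II right the duplicated minus the unique windows gave -1.46 to -0.36, with a median of -1.32 and 10 of 10 libraries below 0.

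The unique windows of II right stood apart from the other unique sequence of the ends. They numbered 44, all within 10 kb of the tip, and had levels of 1.98, 1.69 and 1.65 in Myo1-GFP and 2.03 and 1.54 in NoIP in high phosphate, and of 1.74, 1.92 and 1.78 in Myo1-GFP and 2.25 and 1.82 in NoIP in low phosphate. The median of 1.80 is 3.48 times the typical window, and the groups overlapped in each comparison. These windows are unique in the reference, and how many copies the cells carry was not measured. In the unique windows outside this tip, 328 in number, the level lay between -0.58 and -0.14, below the typical window in 10 of 10 libraries. Most of the unique windows of II right fell into a pair of runs. The first, chrII:4532501-4535100, covered 25 windows from the 3′ end of tlh2 toward the tip, with a mean of 1.89 and library values from 1.58 to 2.28, and it contains the II right sequence printed above. The other, chrII:4536001-4537500, covered 14 windows without a gene label, with a mean of 1.87. Closer to the tip, the single unique windows at chrII:4538001-4538200 and chrII:4539701-4539804 had means of 0.41 and -0.24.

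The signal of the duplicated windows moved with depth. Over the 955 duplicated windows of all 4 ends the level ranged from 0.11 to 1.13 between libraries, and its rank correlation with depth over the 10 libraries was -0.93. The 4 ends as wholes gave correlations of -0.90, -0.82, -0.92 and -0.92 in the order I left, I right, II left and II right. The same held elsewhere in repeated DNA, with -0.96 for the 889 windows between the outermost centromeric RNAs of each chromosome (levels from 0.18 to 1.68) and -0.93 for duplicated windows of the chromosome arms (0.28 to 2.05). The 328 unique windows of the ends outside the tip of II right went the other way, with a rank correlation of 0.48, a Pearson correlation of 0.91 with log2 depth, and their lowest levels in both shallow libraries. The rank correlation was -0.26 for the unique windows at the tip of II right and -0.03 for the unique windows of the arms. Correlations over these 10 libraries are descriptions that mix 4 groups, and the part that depth plays in the levels was not tested.

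**Figure D3:**
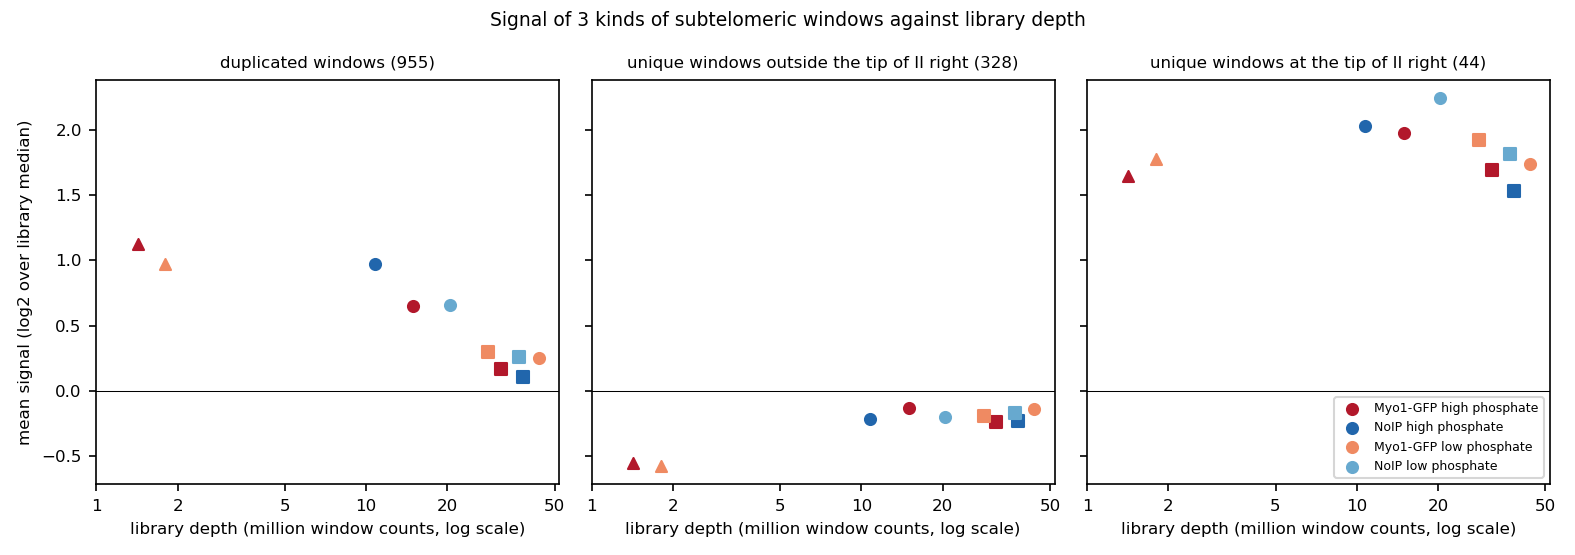
Level (y axis, log2 of the mean signal over the library's median window) against library depth in window counts (log x axis) for 3 classes of window, with 1 point per library, coloured by group and shaped by replicate. The 955 duplicated windows range from 1.13 in the shallowest library to 0.11 in NoIP high phosphate replicate 2, and the unique windows stay between -0.58 and -0.14 outside the tip of II right and between 1.54 and 2.25 at that tip.

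Copies of 1 sequence at different ends had similar signal. In 672 pairs of windows with identical letters at 2 ends, the Pearson correlation of their log2 signal was 0.75 to 0.85 in the individual libraries. The median absolute difference was 0.083 to 0.206 on the log2 scale, where counting error alone would give 0.074 to 0.334. In both shallow libraries the observed difference, 0.170 and 0.206, was smaller than that counting error (0.334 and 0.309). In 5 of the 8 deeper libraries it was above counting error, for example 0.104 against 0.088 in Myo1-GFP high phosphate replicate 2 and 0.083 against 0.074 in Myo1-GFP low phosphate replicate 1. How the aligner placed reads with several matches is not given in the sources used here.

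The 55 genes with windows at the ends were grouped by annotated product, and their levels are log2 of the mean signal over a gene's windows relative to the median gene of the library. The helicase genes were highest. Levels of tlh1, a RecQ type DNA helicase gene at the tip of I left (chrI:1-5662, minus strand), were 1.33, 0.72 and 1.67 in Myo1-GFP and 1.58 and 0.73 in NoIP in high phosphate, and 0.77, 0.82 and 1.56 in Myo1-GFP and 1.16 and 0.64 in NoIP in low phosphate. Its relative tlh2 at II right (chrII:4526885-4532899, plus strand) had 1.42, 0.86 and 1.70 in Myo1-GFP and 1.60 and 0.80 in NoIP in high phosphate, and 0.81, 0.93 and 1.58 in Myo1-GFP and 1.23 and 0.75 in NoIP in low phosphate. Both genes were above the median gene in all 10 libraries, and the values of each library at the 2 genes were close, as they were at other copies.

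The S. pombe-specific DUF999 family, named for a domain of unknown function, had 8 members at the ends, all with means above 0 and a median of 0.56. All 8 members of the S. pombe-specific 5Tm family, which holds ftm1 to ftm7 and encodes predicted membrane proteins, also had means above 0, with a median of 0.32, as did the 3 predicted methyltransferase genes with a median of 0.32. The libraries differed in how many DUF999, 5Tm and methyltransferase genes lay above 0. These counts were 8, 8 and 3 in NoIP high phosphate replicate 1, and 6, 2 and 0 in replicate 2 of that group. Among 4 genes of cell surface proteins 3 had means above 0, and among 6 transporters and channels the number was 3, with medians of 0.20 and 0.01. The 7 genes of other enzymes had 1 mean above 0 and a median of -0.13. Of the 11 other proteins 7 lay above 0 (median 0.05), and of the 5 non-coding RNAs 2 did, with prl11, a polyadenylated RNA, close to the median gene on average and between -0.37 and 0.69 in the libraries.

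Of the 55 genes, 17 had means below the median gene. All 9 genes with over 90% unique words had negative means, with a median of -0.35, against 7 of the 45 genes with under 50% unique words. They included gdt1 at I right, a homologue of human TMEM165, at -0.21, pdc102, a predicted pyruvate decarboxylase gene, at -0.43, and ght7 at II left, a predicted hexose transporter gene, at -0.49. The ght7 values ran from -1.36 to -0.07, so all 10 libraries were below 0.

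**Figure D4:**
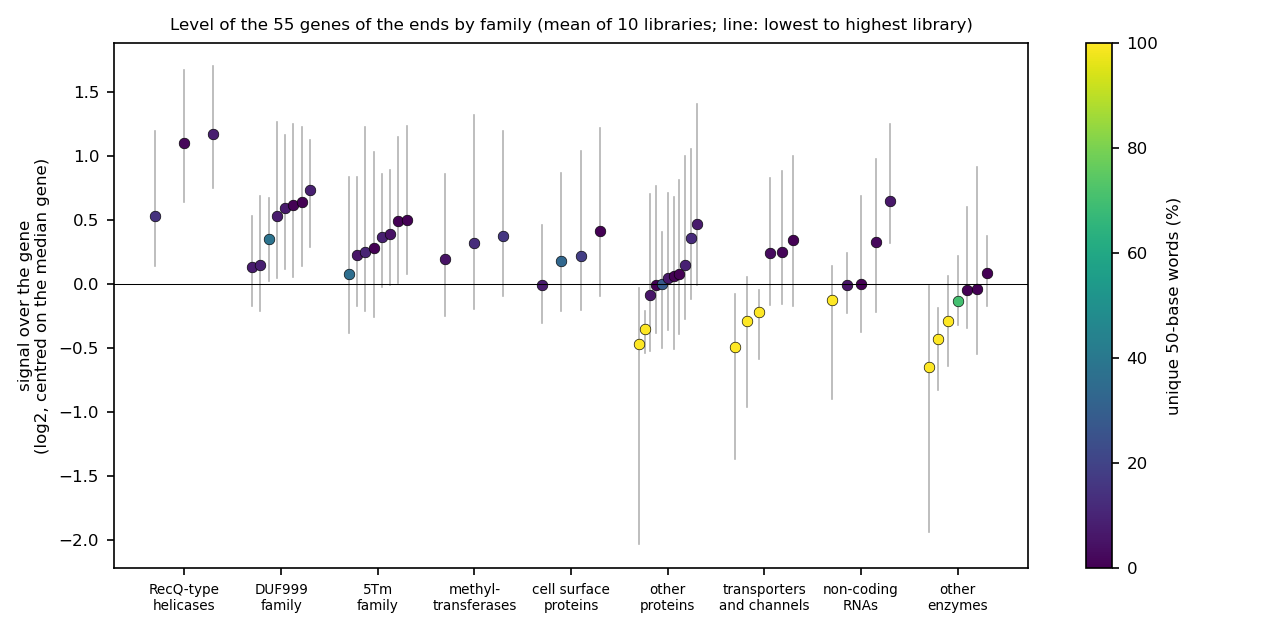
Level of each of the 55 genes (y axis, log2 mean signal over the library's median gene; points are means over the 10 libraries and lines run from the lowest to the highest library), grouped by family and coloured by the share of unique words in %. The helicase genes tlh1 and tlh2 lie highest, at 1.1 and 1.17, and the 9 genes of unique sequence lie below 0.

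Myo1-GFP did not differ detectably from NoIP at any end. At I left the levels were 0.62 ± 0.45 (SD, n = 3) for Myo1-GFP and 0.53 ± 0.56 (n = 2) for NoIP in high phosphate, and 0.48 ± 0.30 and 0.45 ± 0.26 in low phosphate. II right gave 1.0 ± 0.34 and 0.92 ± 0.53 in high and 0.91 ± 0.30 and 0.93 ± 0.29 in low phosphate. I right gave 0.24 ± 0.27 and 0.18 ± 0.39 in high and 0.17 ± 0.20 and 0.16 ± 0.16 in low phosphate, and II left 0.23 ± 0.33 and 0.17 ± 0.45, then 0.13 ± 0.32 and 0.10 ± 0.18. The groups overlapped at all 4 ends in both conditions, whereas 16.9% of the 314 stretches did not overlap in high phosphate and 31.5% did not in low phosphate. Without the shallow replicate 3 of both Myo1-GFP groups, the difference of Myo1-GFP from NoIP in high phosphate changed sign at all 4 ends, to -0.12, -0.07, -0.10 and -0.07 in the order I left, I right, II left and II right, and in low phosphate it was -0.15, -0.11, -0.15 and -0.18.

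The test across all features, limma with Benjamini-Hochberg adjustment over the whole table, called none of the 1598 windows, 32 bins of 5 kb or 55 genes of the ends at an adjusted p under 0.05 for Myo1-GFP against NoIP. Over the genome it called 0.0% of windows, 0.0% of bins and 0.0% of genes in each condition and in both combined. At an unadjusted p under 0.05 the ends had 7, 1 and 0 windows in these 3 contrasts. The genome had 1.2%, 0.122% and 0.928% of its windows there. No bin or gene of the ends reached it, where the genome had 72, 2 and 56 of 2516 bins. Of the 6073 genes of the genome, 126, 22 and 113 did. The window with the smallest p in high phosphate lay in ght7 (chrII:38701-38900), where Myo1-GFP minus NoIP was -0.83 ± 0.32 (SE, limma adjusted p = 1). In low phosphate it lay in the DUF999 gene SPAC212.04c (chrI:22601-22800), at -0.49 ± 0.21 (limma adjusted p = 0.974), and over both conditions just beside SPBC1348.08c, a predicted cell surface glycoprotein gene (chrII:22001-22200), at -0.57 ± 0.27 (limma adjusted p = 0.957). Among genes, ght7 had the smallest p in high phosphate, at -0.50 ± 0.28 (limma adjusted p = 1), and over both conditions, at -0.32 ± 0.20 (limma adjusted p = 0.946). In low phosphate it was SPAC186.06, a predicted unfolded protein response gene, at -0.49 ± 0.51 (limma adjusted p = 0.975), and this value became 0.13 without Myo1-GFP low phosphate replicate 3. Differences of the 32 bins ran from -0.23 to 0.19 in high and from -0.36 to 0.19 in low phosphate, with a median SE of 0.29. The I right bin from 20 to 25 kb had the smallest p in high phosphate, at -0.23 ± 0.18 (limma adjusted p = 0.998), and the I right bin from 30 to 35 kb had it in low phosphate, at -0.36 ± 0.33 (limma adjusted p = 0.973), and over both conditions, at -0.27 ± 0.23 (limma adjusted p = 0.911).

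Low phosphate did not move the level of an end beyond the spread of its replicates. In Myo1-GFP the change from high to low phosphate was -0.15 at I left, -0.07 at I right, -0.10 at II left and -0.08 at II right, and in NoIP it was -0.07, -0.02, -0.07 and 0.01. The groups overlapped at all ends in both kinds of library, where 17.8% of the 314 stretches did not overlap in Myo1-GFP and 65.3% did not in NoIP. No window, bin or gene of the ends was called by limma in either kind. Over the genome the calls were 0.0174% of windows, 0.556% of bins and 0.379% of genes in Myo1-GFP. They were 0.0% of windows, 0.238% of bins and 0.28% of genes in NoIP. For the interaction, that is, the difference between the changes of Myo1-GFP and NoIP, they were 0.0% at each scale. At an unadjusted p under 0.05 the ends had no bin and 1 gene, in NoIP. The genome had 410 of 2516 bins and 705 of 6073 genes there in Myo1-GFP, and 252 bins and 446 genes in NoIP.

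Most bins of the ends had changes below 0, none of which passed the test. In Myo1-GFP 3 of the 32 bins had a change above 0, with 49.6% over all bins, and in NoIP 8 of 32 did, with 47.6% over all bins. The changes ran from -0.23 to 0.08 in Myo1-GFP and from -0.26 to 0.21 in NoIP, with median SEs of 0.26 and 0.31. The smallest p belonged in both kinds to the II left bin from 35 to 40 kb, at -0.14 ± 0.07 in Myo1-GFP (limma adjusted p = 0.329) and -0.08 ± 0.08 in NoIP (limma adjusted p = 0.828). Among genes it belonged to SPAC186.08c, a predicted L-lactate dehydrogenase gene, in Myo1-GFP (-0.29 ± 0.13, limma adjusted p = 0.442) and to SPAC750.01, an aldo/keto reductase gene, in NoIP (-0.36 ± 0.13, limma adjusted p = 0.483). Neighbouring bins share duplicated sequence whose signal moved with depth, so their signs are not independent.

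At single windows, an unadjusted p under 0.05 was reached by 24 of 1598 windows in Myo1-GFP, 15 of them higher in low phosphate, by 16 in NoIP, all higher, and by 2 for the interaction. The genome had 7.99%, 4.58% and 0.322% of its windows there. Windows higher in every low phosphate library than in every high phosphate library numbered 39 in Myo1-GFP and 144 in NoIP, shares below the 7.38% and 24.0% of the genome. Across the 1598 windows 534 changes were above 0 in Myo1-GFP and 609 in NoIP, against 47.4% and 50.1% of all windows.

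The windows with the smallest p lay at the same place in Myo1-GFP and in NoIP, before the start of the DUF999 gene SPAC212.01c at I left. At chrI:28201-28400 the Myo1-GFP levels were 0.12, -0.13 and 0.00 in high and 0.60, 0.64 and 0.93 in low phosphate, and the NoIP levels were -0.09 and -0.31 in high and 0.99 and 0.70 in low phosphate. Every low phosphate library lay above every high phosphate library, whichever the strain. The change in Myo1-GFP was 0.73 ± 0.17 (SE, limma adjusted p = 0.227). The window was picked by its p for this comparison, so the lack of overlap is no separate support. Within both kinds at once, 17 of the 1598 windows were higher in every low than in every high phosphate library. The share of such windows over the genome was not counted. At the next window, chrI:28301-28500, the levels were 0.07, -0.08 and 0.32 in Myo1-GFP and -0.25 and -0.42 in NoIP in high phosphate, and 0.57, 0.69 and 1.13 and 1.05 and 0.76 in low phosphate. In this window, which shares bases and reads with the first, the conditions did not overlap either. The change in NoIP was 1.24 ± 0.25 (SE, limma adjusted p = 0.206). Neither window passed the threshold in the test over all 10 libraries. When limma weighted libraries by their quality, the Myo1-GFP change at chrI:28201-28400 was 0.64 with an adjusted p of 0.00156, and without replicate 3 of both Myo1-GFP groups it was 0.62 with an adjusted p of 0.0453. The NoIP change at chrI:28301-28500 had limma adjusted p-values of 0.000482 and 0.000928 in these fits.

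Under library weights 16 windows of the ends passed in Myo1-GFP and 9 in NoIP, where 8.07% and 4.26% of all windows did, and in the fit of 8 libraries 7 passed in each kind, where 3.93% and 5.81% of all windows did. The members' shares were thus below those of the genome. Together with quantile normalisation and the left-out libraries, these fits called 19 distinct windows, all of them higher in low phosphate in both Myo1-GFP and NoIP. All but 5 of the 19 lay beside the starts of DUF999 genes, and the 5 were unique windows at the start of gdt1 (chrI:5541301-5541900), where the deeper Myo1-GFP libraries had 0.23 to 0.48 in low phosphate and -0.44 to -0.09 in high phosphate. In the shallow libraries these windows were at -0.19 to 0.00 in high and -1.14 to -0.14 in low phosphate.

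Because of these windows, the signal around the 8 DUF999 starts was lined up, a view chosen after their values were seen and given without a test. From 400 to 300 bases before the start, the change from high to low phosphate in NoIP was above 0 at 8 of 8 genes with a median of 0.54, and in Myo1-GFP it was above 0 at 7 of 8 with a median of 0.44. From 300 to 200 bases before the start both kinds had 8 of 8 above 0, with medians of 0.64 in NoIP and 0.39 in Myo1-GFP. Inside the genes, from 100 to 500 bases after the start, none of the 8 was above 0 in either kind, and the medians of the 100-base steps lay between -0.30 and -0.14. In the 250 bases before the start the median change in NoIP was 0.43 for the DUF999 genes, with 8 of 8 above 0, and -0.15 for the 40 other genes of the ends with an upstream stretch, with 12 above 0. In Myo1-GFP it was 0.12, with 6 of 8 above 0, and -0.19, with 14 of 40 above 0. Over these 250 bases, genes were counted where every low phosphate library lay above every high phosphate library. In NoIP 1 of the 8 DUF999 genes and 5 of the 40 others met this, and in Myo1-GFP none did. Over the windows of whole genes, 1496 of the 6073 genes of the genome met it in NoIP and 613 in Myo1-GFP. Upstream stretches were not counted for genes outside the ends.

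**Figure D5:**
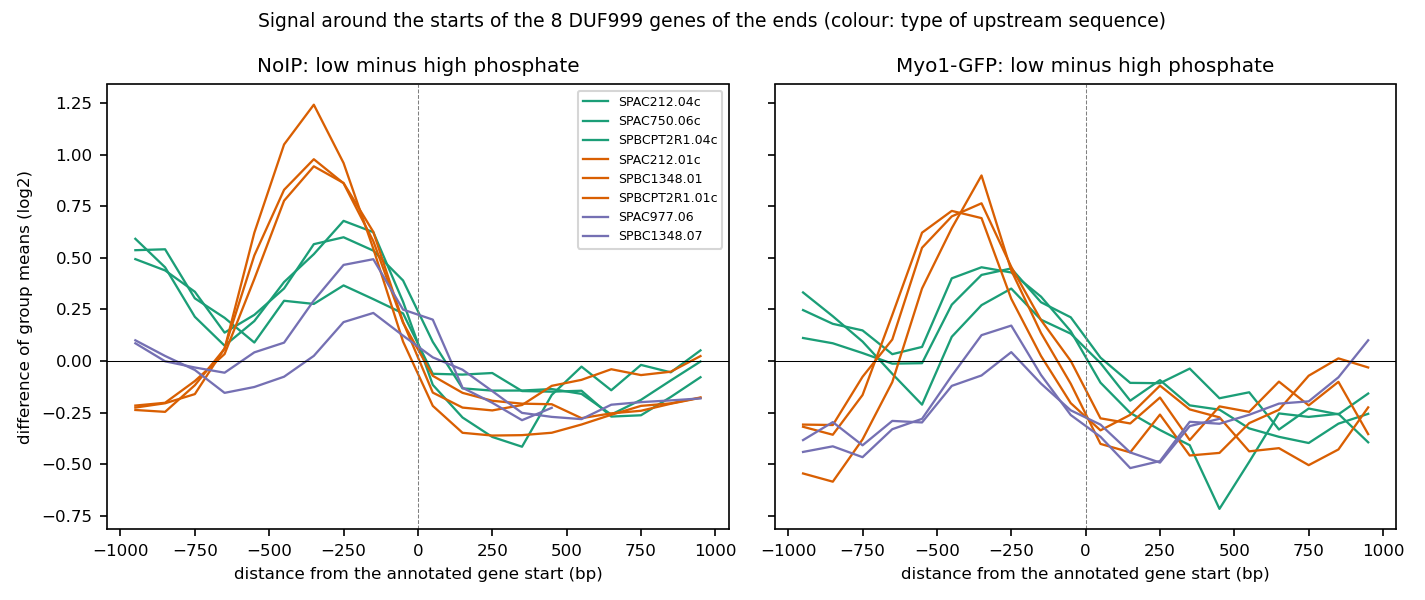
Change from high to low phosphate (y axis, log2) around the starts of the 8 DUF999 genes in Myo1-GFP and in NoIP, against distance from the start in bp, with 1 line per gene coloured by the type of its upstream sequence. Changes are above 0 in at least 6 of 8 genes in each step between 500 and 100 bp before the start and below 0 in all 8 from 100 to 500 bp after it.

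The 8 genes have 3 types of upstream sequence, and the changes are given by type, without a test of their difference. From 500 to 201 bases before the start the sequences were 98.7% to 100% identical within a type and 50.6% to 70.5% identical between types. SPAC212.01c, SPBC1348.01 and SPBCPT2R1.01c, at I left, II left and II right, share type A, and their changes 400 to 300 bases before the start were 1.24, 0.94 and 0.98 in NoIP and 0.69, 0.76 and 0.90 in Myo1-GFP. SPAC212.04c, SPAC750.06c and SPBCPT2R1.04c, at I left, I right and II right, share type B, with 0.52, 0.28 and 0.57 in NoIP and 0.45, 0.27 and 0.42 in Myo1-GFP. SPAC977.06 and SPBC1348.07 share type C, with 0.29 and 0.03 in NoIP and -0.07 and 0.13 in Myo1-GFP. Copies of 1 type may share reads, so the 8 genes amount to at most 3 sequences and not to 8 independent measurements. The stretches of types A and B printed below are also nearly the same in their last part, nearest the gene. Reads may therefore be shared between these types as well, and the types are not fully separate measurements. The upstream stretch of 1 gene per type is given to show how the types differ. Each runs from 500 to 201 bases before the gene start (plus strand, ASM294v3). Capitals mark bases that, in pairwise alignments, differ from another copy of the type or lie opposite a gap in it. The capitals of types A and C lie opposite gaps at an edge of the stretch. Bases found only in other copies are not marked.
SPAC212.01c, type A, chrI:28238-28537: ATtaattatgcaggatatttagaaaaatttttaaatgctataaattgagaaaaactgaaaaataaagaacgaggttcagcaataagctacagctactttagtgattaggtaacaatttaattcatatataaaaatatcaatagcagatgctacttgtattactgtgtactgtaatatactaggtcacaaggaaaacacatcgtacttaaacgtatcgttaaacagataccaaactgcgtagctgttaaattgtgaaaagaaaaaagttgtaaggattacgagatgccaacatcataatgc
SPAC212.04c, type B, chrI:21087-21386: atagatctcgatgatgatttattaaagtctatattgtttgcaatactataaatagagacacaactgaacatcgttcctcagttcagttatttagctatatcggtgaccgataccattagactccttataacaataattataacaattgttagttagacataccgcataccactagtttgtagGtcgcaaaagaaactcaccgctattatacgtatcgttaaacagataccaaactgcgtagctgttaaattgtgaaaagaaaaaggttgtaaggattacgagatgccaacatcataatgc
SPAC977.06, type C, chrI:38931-39230: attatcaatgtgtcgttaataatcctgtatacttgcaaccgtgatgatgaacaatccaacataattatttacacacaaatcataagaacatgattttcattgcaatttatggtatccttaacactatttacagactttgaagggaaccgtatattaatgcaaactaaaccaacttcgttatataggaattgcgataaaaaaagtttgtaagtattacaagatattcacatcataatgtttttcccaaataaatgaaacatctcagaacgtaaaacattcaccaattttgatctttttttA

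The most strongly covered window of the ends, the unique II right window printed above (chrII:4533101-4533300), also had its highest values in low phosphate. Its levels were 2.02, 1.72 and 1.58 in Myo1-GFP and 2.08 and 1.62 in NoIP in high phosphate, and 2.16, 2.44 and 2.32 in Myo1-GFP and 2.98 and 2.32 in NoIP in low phosphate. The conditions did not overlap within either kind, but the changes of 0.54 ± 0.26 in Myo1-GFP and 0.79 ± 0.32 in NoIP did not pass (limma adjusted p = 0.608 and 0.953). Over all 44 unique windows of this tip the group levels were 1.78 ± 0.18 and 1.82 ± 0.10 (SD, n = 3) in Myo1-GFP and 1.78 ± 0.35 and 2.03 ± 0.30 (SD, n = 2) in NoIP in high and low phosphate, and these groups overlapped. In the unique windows of the other 3 ends the conditions overlapped in Myo1-GFP but not in NoIP, which has 2 libraries a condition. The NoIP change was 0.17 at I left, 0.07 at I right and -0.06 at II left. Such non-overlap was common in NoIP, at 65.3% of the 314 stretches of 40 kb, against 17.8% in Myo1-GFP. For the interaction, the window with the smallest p lay in ght7 (chrII:38801-39000), at 1.03 ± 0.42 (SE, limma adjusted p = 1), the bin was that from 35 to 40 kb of I left, at -0.26 ± 0.27 (limma adjusted p = 0.999), and the gene was SPAC750.01, at 0.23 ± 0.16 (limma adjusted p = 0.999).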

How the data were processed

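ChIP-seq signal was analysed in 10 libraries, 3 of Myo1-GFP and 2 of NoIP in each phosphate condition, grouped by their labels. The submitters' processing notes name Trim Galore 0.3.8, Bowtie2 2.2.4 and the build ASM294v2, while the study's methods name TopHat and SeqMonk. The authors deposited 1 table of read signal, with a value per library in windows of 200 bp placed every 100 bp. Within a library each value was a whole multiple, within 0.01, of the smallest step, and the step was read as 1 count to estimate depth. The scale factor, duplicate removal, mapping-quality filter and which libraries had reads of 50 or 100 bases are not given in the sources used here. Neighbouring windows overlap, so they share reads, and depth totals count such reads more than once. Counting errors cover counting only.

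Values were taken as log2(value + 1) and centred on the library's median window, bin or gene, after windows above 0 in fewer than 2 libraries were left out (126242 windows remained, with all 1598 of the ends). Bins and genes used the mean signal of their windows, and fold changes are on this log2 scale. Each contrast was tested with limma 3.58.1 (lmFit and eBayes with trend, R 4.3.3), with 1 mean per group over all 10 libraries and Benjamini-Hochberg adjustment over all 126242 windows, 2516 bins or 6073 genes. The code was tested on simulated data. Means over an end got no test. Python 3.11.15, numpy 2.4.6, pandas 2.3.3 and scipy 1.17.1 were used for the rest.

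Words of 50 bases were counted in the RefSeq sequence of ASM294v3, whose chromosomes I, II and III matched the table's last bases while the mitochondrial sequence did not (19433 against 19431). Labels of 54 of the 55 genes had an annotated position, and the windows of all 54 overlapped it. Gene levels in repeated sequence are uncertain for the single copy. The members, gene families and tests were chosen with earlier results of these data known. The text names each end, its highest, lowest and outermost bin, its window of highest signal, the feature of smallest p in each contrast where none passed, and genes with a standard name, grouped by product. The DUF999 starts, the unique windows of II right and gdt1 were added after their values were seen. Alternatives were other centring and normalisation, filters, pseudocounts, library weights, a replicate block and left-out libraries.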

Additional observations from a re-analysis of the deposited data

How the results depend on the processing

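The count of called windows, bins and genes of the ends was recomputed under each alternative, and 378 of 384 counts stayed at 0, as in the fit reported. The exceptions were all windows higher in low phosphate. Library weights gave 16 windows in Myo1-GFP and 9 in NoIP, the fit of 8 libraries without Myo1-GFP replicate 3 gave 7 in Myo1-GFP and 7 in NoIP, and quantile normalisation gave 1 in NoIP. Leaving out single libraries gave 0 to 1 windows in NoIP, with the 1 found without Myo1-GFP low phosphate replicate 3, and 0 for every other count. The change at chrI:28301-28500 in NoIP then had a limma adjusted p of 0.0461, and 0.0493 under quantile normalisation. Over all alternatives its adjusted p ranged from 0.000482 to 1, and that of the Myo1-GFP change at chrI:28201-28400 from 0.00156 to 0.54. The cause was not tested.

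Some differences that passed no threshold changed sign. In the I right bin from 30 to 35 kb, Myo1-GFP minus NoIP over both conditions became 0.016 under library weights, 0.048 with a replicate block and 0.048 with 8 libraries. In the II left bin from 35 to 40 kb, the NoIP change became 0.029 without centring. SPAC186.06, Myo1-GFP minus NoIP in low phosphate, became 0.12 under library weights and 0.13 with 8 libraries, and ranged from -0.83 to 0.13 when single libraries were left out. The interaction at SPAC750.01 became -0.090 in unique windows alone.

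The median levels of the ends in unique windows alone were -0.20 at I left, -0.19 at I right, -0.25 at II left and 1.80 at II right, and II right without its outer 10 kb stood at 0.59. With single libraries left out, an alternative added after the data were seen, the medians ranged from 0.31 to 0.64 at I left, 0.06 to 0.27 at I right, -0.03 to 0.22 at II left and 0.79 to 1.05 at II right. The fit of 8 libraries, also added for the levels of the ends and the DUF999 starts, gave 0.30, 0.05, -0.03 and 0.76 at the ends in that order. Its median Myo1-GFP change was 0.58 from 400 to 300 bases before the DUF999 starts, with 7 of 8 above 0. From 300 to 200 bases before them it was 0.47, with 6 of 8 above 0. A replicate block called 0 windows, bins and genes of the ends in every contrast. For phosphate in Myo1-GFP it called 40 windows, 82 bins and 44 genes of the genome, where the fit reported called 22, 14 and 23. In NoIP these were 0, 14 and 24, against 0, 6 and 17. Same-numbered libraries deviated together with correlations from -0.18 to 0.37 over windows, -0.63 to 0.78 over bins and -0.28 to 0.51 over genes. Of the 13 pairs, 7, 9 and 7 were over 0.1, and the pairs within NoIP repeat 1 value at each scale. These values do not settle whether the numbers pair the libraries, and the fit reported has no pairing.

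The median window of the shallow Myo1-GFP libraries held 8 and 11 counts, and the level of duplicated sequence had a rank correlation of -0.93 with depth over the 10 libraries.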
